A study of Mus musculus with 5 samples.

Results

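The DNA replication machinery of haematopoietic stem cells (HSCs) was read by complex, from 53 genes named for it among the 35976 gene rows of the deposited table. The genes were taken by symbol and all 53 were found; they fall into 11 complexes or functions, from the origin recognition complex to the supply of nucleotides and histones. Expression was measured in 5 libraries of 30 sorted C57BL/6 bone marrow HSCs each (Lin- Sca-1+ c-kit+ CD34- CD150+), made by Smart-seq2, a full-length cDNA method without strand or molecule identifiers. Of these, 3 libraries are labelled Ythdf3-/- (loss of YTHDF3, which binds mRNA methylated at N6 of adenosine) and 2 are labelled WT. The labels give no treatment, age, sex or description of the allele, and the series text counts 2 knockout and 3 wild-type samples, each of a different mouse. Nothing links animals across the labels.

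The targeted gene went against the labels. Ythdf3 (chromosome 3, 16183148 to 16217037, mm10) stood at 0.315, 37.3 and 52.2 CPM (the read count scaled to a common library total) in the libraries labelled Ythdf3-/- 1, 2 and 3, and at 1.20 and 3.23 CPM in those labelled WT 1 and 2. Directions below therefore refer to the labels alone. Totals were between 6357862 and 9076806 counts under the Ythdf3-/- label, and 16650134 and 8968162 counts under the WT label. Of 12 stem cell genes, at most 2 had 5 or fewer counts in any library. Slamf1, which encodes the sort marker CD150, had 1 count (0.112 CPM) in the library labelled WT 2. It had 28.9 to 51.6 CPM in the others. The 12 genes summed to 2238, 2867 and 3338 CPM under the Ythdf3-/- label and to 2850 and 1678 CPM under the WT label. Transcripts of other lineages varied between libraries. Summed, 12 erythroid genes had 37701, 2197 and 1973 CPM under the Ythdf3-/- label and 2631 and 3211 CPM under the WT label. Car2 alone made up 2596 and 1743 CPM of the sums of WT 1 and WT 2. The globin gene Hba-a1 had 18524 CPM in Ythdf3-/- 1 and 272 CPM in WT 2. Gata1 and Klf1, erythroid transcription factors, stood at 0.157 and 1.42 CPM in Ythdf3-/- 1 and at 118 and 169 CPM in WT 2. Klf1 also had 48.9 CPM in the library labelled Ythdf3-/- 3. In bulk samples fewer cells of a kind and less RNA per cell cannot be told apart, which holds for every level below.

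Replication starts at origins bound by the origin recognition complex (ORC). CDC6 and CDT1 load the MCM2-7 helicase there in G1, a step called licensing. Kinases then bring in CDC45 and GINS, which turn MCM2-7 into the active helicase, and polymerases with their clamp copy the strands. Most of these genes are textbook targets of E2F transcription factors, switched on as cells leave quiescence, and HSCs sorted in this way are mostly quiescent.

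E2F motifs were more frequent in the promoters of these genes than in those of all genes. Of the 53 genes, 45 had a promoter (250 bases before the start to 50 after it) in a RefSeq table of GRCm38.p6, and 17 of the 45 (37.8%) held an E2F motif, spelled TTTCCCGC, TTTCGCGC, TTTGCCGC or TTTGGCGC, on either strand. The share was 2.60% over all 27025 genes of the table and 3.29% over its 17491 protein-coding genes. A CCAAT box (CCAAT, either strand) was held by 60.0% of the 45 and by 41.1% of all genes. Windows of 170 bases before the start to 20 after it follow for 6 genes on which the results turn, on the coding strand with both motifs in capitals. Mcm5 and Mcm6 show E2F spellings of both strands that overlap each other. Cdc6 and Rrm2 were highest in the same pair of libraries, and Tk1 and Dbf4 were at 5 counts or fewer in every library labelled Ythdf3-/-.
Mcm5: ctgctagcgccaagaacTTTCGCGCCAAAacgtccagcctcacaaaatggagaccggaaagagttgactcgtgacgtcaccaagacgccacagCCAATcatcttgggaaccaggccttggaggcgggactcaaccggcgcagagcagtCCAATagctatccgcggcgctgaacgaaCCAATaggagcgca
Mcm6: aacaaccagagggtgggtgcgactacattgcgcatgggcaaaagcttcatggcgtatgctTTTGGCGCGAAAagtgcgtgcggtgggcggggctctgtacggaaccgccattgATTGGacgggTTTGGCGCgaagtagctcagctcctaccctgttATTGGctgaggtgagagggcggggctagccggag
Cdc6: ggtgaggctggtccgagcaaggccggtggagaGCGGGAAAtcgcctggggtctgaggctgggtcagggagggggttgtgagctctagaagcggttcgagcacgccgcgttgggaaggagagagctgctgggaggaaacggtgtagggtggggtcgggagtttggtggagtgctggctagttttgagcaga
Rrm2: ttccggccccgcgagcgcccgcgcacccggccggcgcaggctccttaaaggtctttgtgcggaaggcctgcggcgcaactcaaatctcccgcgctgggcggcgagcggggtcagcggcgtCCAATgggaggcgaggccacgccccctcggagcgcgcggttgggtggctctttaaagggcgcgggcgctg
Tk1: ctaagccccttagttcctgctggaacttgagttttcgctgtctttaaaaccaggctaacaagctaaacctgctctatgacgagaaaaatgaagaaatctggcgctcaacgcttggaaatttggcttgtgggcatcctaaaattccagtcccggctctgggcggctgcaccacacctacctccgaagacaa
Dbf4: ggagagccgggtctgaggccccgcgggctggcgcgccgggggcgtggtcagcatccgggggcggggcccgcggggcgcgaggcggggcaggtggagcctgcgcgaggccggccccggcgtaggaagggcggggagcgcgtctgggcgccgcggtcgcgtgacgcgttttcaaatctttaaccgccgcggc
The windows lie at chr8:75109339-75109528 (plus strand), chr1:128359686-128359875 (minus), chr11:98907981-98908170 (plus), chr12:24708084-24708273 (plus), chr11:117825995-117826184 (minus) and chr5:8422697-8422886 (minus). In Mcm6 the E2F matches begin at bases -110, -106 and -47 and the CCAAT boxes at -57 and -14, counted from the start. In Mcm5 the overlapping E2F matches begin at -153 and -149. Cdc6 has 1 E2F match, at -138, and Rrm2 has 1 CCAAT box, at -50. The windows of Tk1 and Dbf4 hold neither set of letters.

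Across the machinery no gene passed the test between the labels. Of the 53 genes, 52 were tested and Chaf1a was too low; edgeR called 0 of the 52 at an adjusted p of 0.05, against 0.0% of all 11146 genes tested. An unadjusted p under 0.05 was reached by 7 genes (13.5% of the 52, against 4.85% of all genes), all of them lower under the Ythdf3-/- label (2.75% of all genes were lower and 2.11% higher): Mcm4, Gins1, Dbf4, Pold1, Rfc1, Tk1 and Dut. Limma voom called 0 (0.0% of all genes), with 6 under the unadjusted 0.05 (11.5% of the 52, against 6.51% of all genes). DESeq2 called 4 of the 50 to which it gave an adjusted p, Gins1, Dbf4, Pold1 and Tk1, all lower, against 1.46% of all genes called lower and 2.95% called higher. Without the library labelled WT 2 the count under the unadjusted 0.05 was 1, with 4.18% of all genes under it in that fit. Without WT 2 and Ythdf3-/- 1 it was 2, with 4.6% of all genes. Without the libraries labelled Ythdf3-/- 2 and 3, which hold the reads of Ythdf3, edgeR called 0 and 8 genes were under it, 7 of them lower, with 4.45% of all genes.

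Fitted differences of the whole set lay mostly below 0 under the Ythdf3-/- label, by an amount that varied with the libraries kept. The fitted log2 fold change was below 0 for 35 of the 52 genes (67.3%, against 52.2% of all genes tested), with a median of -0.62 against -0.063 for all genes. Without the library labelled WT 2 the median was 0.066, with all genes at 0.22. Leaving out Ythdf3-/- 1 or WT 1 gave -1.08 and -1.01, and leaving out Ythdf3-/- 2 gave -0.38. Without both WT 2 and Ythdf3-/- 1 it was -0.37, with all genes at 0.085 and 32 of the 52 genes below 0. Without both Ythdf3-/- 2 and 3 it was -0.15, with all genes at -0.44. Summed over the 53 genes, the level was 5157, 2950 and 3067 CPM under the Ythdf3-/- label and 3745 and 5713 CPM under the WT label. The sums overlapped, and the highest of each label stood well above the others.

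**Figure D1:**
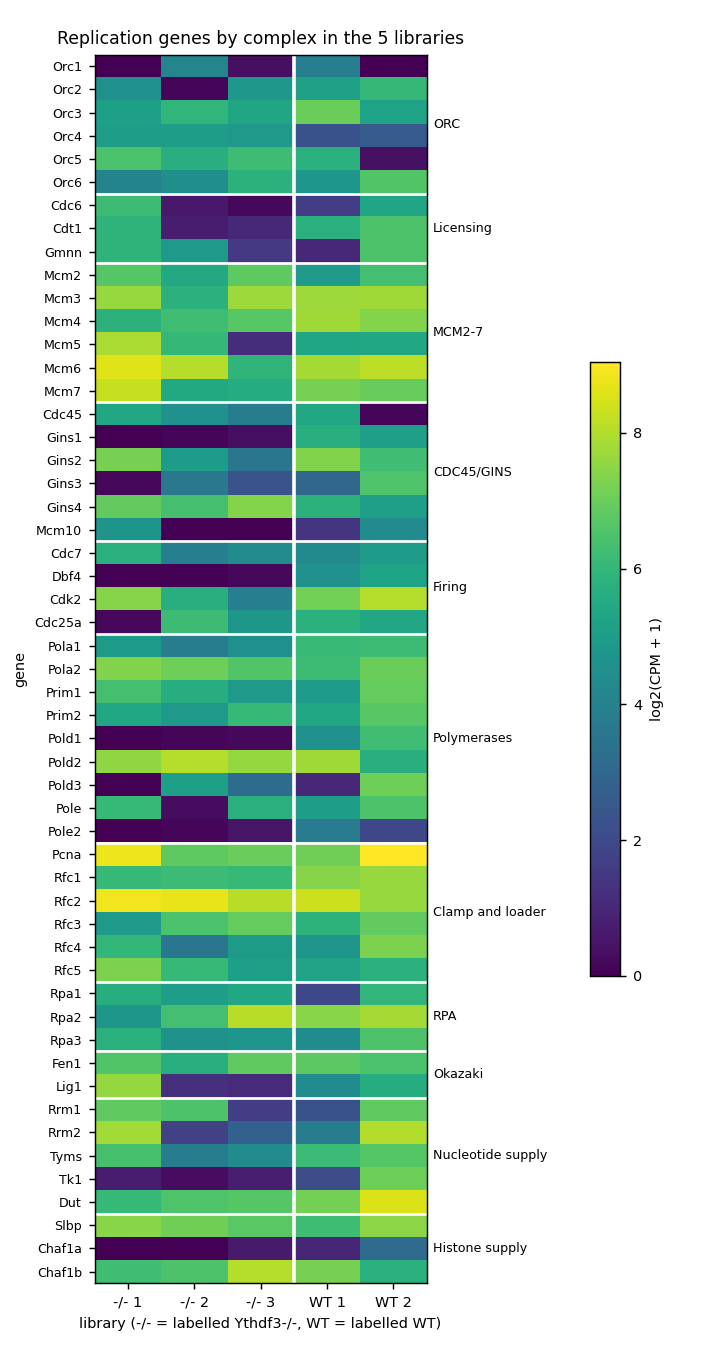
Level of the 53 replication genes (rows, by complex) in the 5 libraries (columns, those labelled Ythdf3-/- left and those labelled WT right), as log2(CPM + 1) in colour from 0 upwards. Gins1, Dbf4, Pold1, Pole2 and Tk1 are dark in all 3 libraries labelled Ythdf3-/-, and Rrm2, Cdc6, Mcm10 and Lig1 are brighter in Ythdf3-/- 1 and WT 2 than in the other libraries.

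Which pair of libraries stood highest did not follow the labels alone. For 18 of the 52 genes (34.6%) the pair was Ythdf3-/- 1 and WT 2, against 9.67% of all genes tested. For 11 genes (21.2%) it was the pair labelled WT, against 11% of all genes. For 0 genes it was Ythdf3-/- 2 and 3, against 10.4%. The other 7 pairs held 2 to 5 genes each. Ythdf3-/- 1 with Ythdf3-/- 2, Ythdf3-/- 3 or WT 1 led for 5, 3 and 3 genes, against 9.12%, 9.77% and 9.92% of all genes. Ythdf3-/- 2 with WT 1 or WT 2 led for 4 and 2 genes, against 9.96% and 9.72%, and Ythdf3-/- 3 with WT 1 or WT 2 for 2 and 4 genes, against 11.1% and 9.4%. Taken singly, the highest library was Ythdf3-/- 1, 2 or 3 for 12, 4 and 6 genes (19.7%, 18.0% and 19.6% of all genes) and WT 1 or 2 for 6 and 24 genes (19.8% and 22.9%). The 18 were Cdc6, Cdt1, Gmnn, Mcm6, Mcm10, Cdc7, Cdk2, Prim1, Pole, Pcna, Rfc4, Rpa1, Rpa3, Lig1, Rrm1, Rrm2, Tyms and Slbp; this way of counting was chosen after the values were seen. E2F motifs were in 5 of the 16 of them with a promoter, in 4 of 9 of the genes led by the WT pair and in 8 of the other 20. Of the erythroid transcripts given above, Hba-a1 was highest in Ythdf3-/- 1, and Gata1 and Klf1 were highest in WT 2. Mki67, a proliferation marker, stood at 30.5, 0.992 and 0.570 CPM under the Ythdf3-/- label and at 3.30 and 116 CPM under the WT label. The summed level of 20 mitosis genes was 345, 123 and 50.7 CPM under the Ythdf3-/- label and 136 and 1089 CPM under the WT label. Early B cell genes, 10 in all, summed to 1849, 221 and 134 CPM under the Ythdf3-/- label. Under the WT label they summed to 653 and 60.3 CPM. Of Ythdf3-/- 1 and WT 2, they were high in Ythdf3-/- 1 alone. The part of these transcripts in the result was not tested.

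**Figure D2:**
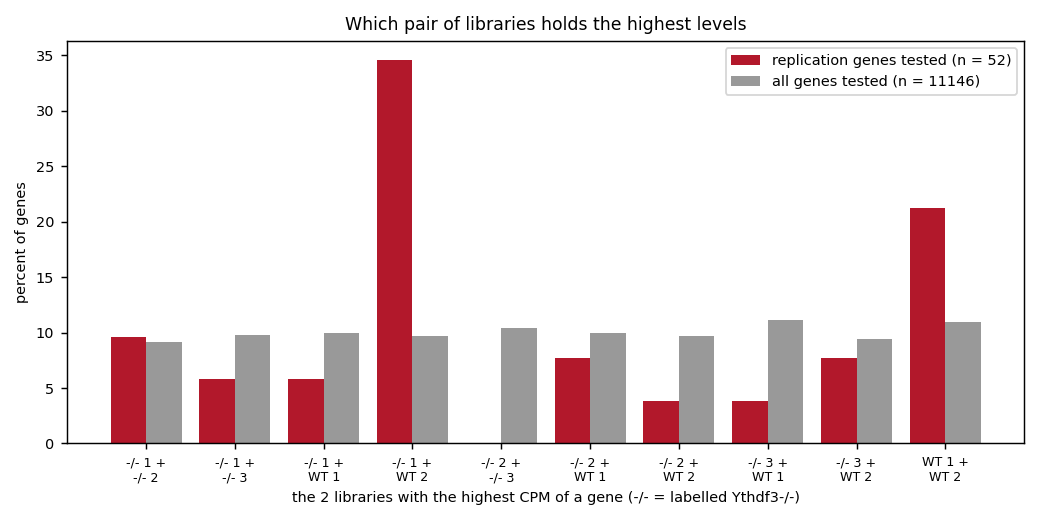
Percent of genes (vertical axis, from 0) by the pair of libraries in which their CPM was highest (horizontal axis), for the 52 replication genes tested (red) and all 11146 genes tested (grey). The pair labelled Ythdf3-/- 1 and WT 2 holds 34.6% of the replication genes and 9.67% of all genes.

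ORC, the 6-subunit complex that marks origins, had transcripts in every library but not of every subunit, with no common direction. Its summed level was 192, 181 and 225 CPM under the Ythdf3-/- label and 261 and 202 CPM under the WT label. Orc4 stood at 32.1, 32.5 and 27.9 CPM in the libraries labelled Ythdf3-/- and at 3.84 and 4.91 CPM in those labelled WT. The groups did not overlap, and the libraries of each label lay close together, yet edgeR did not call it (log2 fold change 2.72, SE 2.0, adjusted p = 0.9998). Orc4 and Gins4 were the 2 genes higher without overlap (3.85% of the 52, against 9.74% of all genes). Orc3 had 33.8, 60.4 and 39.2 CPM against 129 and 36.7 CPM under the WT label, an overlap set by WT 2 (log2 fold change -0.97, SE 0.97, edgeR adjusted p = 0.9998). Without WT 1 that change was 0.15. Orc1, the subunit that cycles with G1, was missing from single libraries of both labels: it had 0, 16.2 and 0.285 CPM under the Ythdf3-/- label and 13.6 and 0 CPM under the WT label. Orc5 had 50.1 to 87.6 CPM under the Ythdf3-/- label but 53.3 and 0.335 CPM under the WT label. Orc2 had 22.2, 0.110 and 27.6 CPM against 35.3 and 64.8 CPM in the libraries labelled WT, and Orc6 ranged from 16 to 55.9 CPM against 26.1 and 95.6 CPM. Exons of Orc2 share 24.0% of their length with Nif3l1, so part of its reads cannot be assigned without strand.

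The licensing factors had the highest median coefficient of variation over the 5 libraries of the 11 functions (107%). Their sum was 188, 29.1 and 2.99 CPM under the Ythdf3-/- label and 55.6 and 222 CPM under the WT label. Cdt1, which brings MCM2-7 to origins, had 58.0, 0.661 and 0.998 CPM in the libraries labelled Ythdf3-/- and 52.4 and 91.4 CPM in those labelled WT. Its level in Ythdf3-/- 1 lay between those of the libraries labelled WT (log2 fold change -1.95, SE 1.89, edgeR adjusted p = 0.9998), and without that library the change was -6.49. Gmnn encodes geminin, the inhibitor of CDT1 in S and G2. It had 57.4, 27.9 and 1.85 CPM under the Ythdf3-/- label and 1.02 and 90.3 CPM under the WT label, so both labels held a high and a low library (log2 fold change -0.77, SE 1.95, edgeR adjusted p = 0.9998). Without WT 2 its change was 4.77. Cdc6, the loader that acts with ORC, had 72.4, 0.551 and 0.143 CPM against 2.16 and 39.8 CPM under the WT label.

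MCM2-7, the ring helicase, was read in every library: none of its 6 subunits had 5 or fewer counts anywhere. The sum was 1289, 543 and 528 CPM under the Ythdf3-/- label and 862 and 905 CPM under the WT label, so the libraries labelled WT lay between those labelled Ythdf3-/-. Mcm4 had 55.7, 75.6 and 102 CPM in the libraries labelled Ythdf3-/- and 213 and 163 CPM in those labelled WT. It was lower in each library labelled Ythdf3-/- (log2 fold change -1.36, SE 0.56, edgeR unadjusted p = 0.0402, adjusted p = 0.973), and stayed between -1.59 and -1.14 whichever single library was left out. Mcm3 had 200.4, 55.5 and 209 CPM against 211 and 218 CPM, so its groups separated by a narrow margin (log2 fold change -0.57, SE 0.61, edgeR adjusted p = 0.9998). Mcm5 had 238, 64.1 and 1.28 CPM under the Ythdf3-/- label and 39.3 and 40.9 CPM under the WT label, the largest ratio of highest to lowest library in the ring (185). Mcm6 had 388, 261 and 59.7 CPM against 225 and 282 CPM. Mcm7 had 307, 43.6 and 47.0 CPM against 146 and 121 CPM. For both, the libraries labelled WT lay inside the range of those labelled Ythdf3-/-. Mcm2 ran from 43.5 to 109 CPM under the Ythdf3-/- label and from 27.9 to 79.5 CPM under the WT label.

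The factors that complete the active helicase split gene by gene. Gins1, a subunit of the GINS tetramer (chromosome 2, 150909556 to 150931280), had counts of 0, 1 and 2 under the Ythdf3-/- label and of 858 and 302 under the WT label. The pooled ratio of the Ythdf3-/- to the WT label was 0.00295 (95% exact interval 0.000608 to 0.00865, counting error only). The edgeR test did not call it (log2 fold change -8.28, SE 2.55, unadjusted p = 0.0115, adjusted p = 0.964). Gins4, of the same tetramer, lay the other way with 118, 82.4 and 166 CPM under the Ythdf3-/- label and 54.7 and 33.2 CPM under the WT label (log2 fold change 1.39, SE 0.74, edgeR adjusted p = 0.988). Its groups did not overlap either. Gins3 had 0.157, 11.5 and 4.13 CPM against 6.85 and 92.3 CPM under the WT label. Gins2 had 144, 30.0 and 10.7 CPM against 158 and 76.7 CPM, but 70.7% of its exon length is shared with Gse1. Cdc45 stood at 41.2, 22.9 and 12.8 CPM under the Ythdf3-/- label and at 42.3 and 0.112 CPM under the WT label. Mcm10, which helps start the helicase, was listed at 24.5, 0 and 0 CPM against 1.62 and 19.7 CPM.

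Among the regulators of firing, Dbf4 stood apart from its partner. DBF4 is the activating subunit of the kinase CDC7, which phosphorylates MCM2-7. Dbf4 (chromosome 5, 8396969 to 8422725) had counts of 0, 0 and 1 under the Ythdf3-/- label and of 385 and 335 under the WT label. The pooled ratio was 0.00158 (95% exact interval 4.01e-05 to 0.00886), and edgeR gave an unadjusted p of 0.0142 and an adjusted p of 0.964 (log2 fold change -9.09, SE 2.92). Cdc7 had 52.2, 14.1 and 19.4 CPM under the Ythdf3-/- label and 19.0 and 30.6 CPM under the WT label, so its groups overlapped. Cdk2, the S phase kinase, had 169, 50.5 and 13.8 CPM against 137 and 261 CPM in the libraries labelled WT (log2 fold change -1.45, SE 0.94, edgeR adjusted p = 0.9998). Without Ythdf3-/- 1 its change was -2.69, and without WT 2 it was -0.87. Cdc25a, the phosphatase that activates CDK2, had 0.157, 72.9 and 26.9 CPM under the Ythdf3-/- label and 53.7 and 41.1 CPM under the WT label.

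In the polymerases too, subunits of 1 enzyme differed in pattern. Pold1 encodes the catalytic subunit of polymerase delta, which copies the lagging strand (chromosome 7, 44532744 to 44548815). Its counts were 0, 1 and 1 under the Ythdf3-/- label and 374 and 683 under the WT label. The pooled ratio was 0.00216 (95% exact interval 0.000261 to 0.00782), and its unadjusted edgeR p of 0.00627 was the smallest of the machinery (log2 fold change -9.06, SE 2.48, adjusted p = 0.964). Its partner Pold2 had 187, 260.3 and 194 CPM under the Ythdf3-/- label and 213 and 50.2 CPM under the WT label, overlapping. Pold3 had 0, 33.6 and 8.12 CPM against 1.02 and 131 CPM. Pole2, an accessory subunit of polymerase epsilon, which copies the leading strand, had 0, 1 and 3 counts under the Ythdf3-/- label and 207 and 26 counts under the WT label (log2 fold change -5.40, SE 2.63, edgeR adjusted p = 0.983). All 3 libraries labelled Ythdf3-/- lay below both others. The catalytic subunit Pole had 66.5, 0.220 and 52.9 CPM under the Ythdf3-/- label and 32.7 and 91.5 CPM under the WT label. In polymerase alpha-primase, which makes the RNA-DNA primers, Pola1 had 29.6, 13.2 and 22.5 CPM against 66.6 and 72.5 CPM, without overlap. Pola2 had 162, 132 and 94.6 CPM against 72.9 and 129 CPM. The primase genes overlapped as well, with 28.6 to 81.8 CPM of Prim1 against 31.1 and 119 CPM, and 28.3 to 65.4 CPM of Prim2 against 41.0 and 102 CPM.

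Taking the genes with at most 5 counts in every library labelled Ythdf3-/- and at least 10 in both labelled WT, 5 of the 52 met the limits (9.62%, against 1.79% of all genes tested): Gins1, Dbf4, Pold1, Pole2 and Tk1. Chaf1a, which was not tested, met the same limits. In the other direction 0 did, against 0.565% of all genes. These limits were chosen after the values were seen. They fix the low counts of the 5 genes in all 3 libraries labelled Ythdf3-/-. Ythdf3 itself had 2, 339 and 366 counts in these libraries. Of the mitosis genes tested, Ccnb2, Bub1b, Cenpf, Tpx2 and Cdca8 met the same limits, so such counts were not particular to the replication genes. More widely, 15 of the 52 genes (28.8%) had at most 5 counts in at least 1 library, against 42.2% of all genes. By library these were 9, 9 and 8 genes under the Ythdf3-/- label (17.3%, 17.3% and 15.4%, against 20.7%, 16.4% and 16.6% of all genes) and 0 and 3 under the WT label (0.0% and 5.77%, against 9.06% and 14.9%). The library labelled WT 1 was the deepest.

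**Figure D3:**
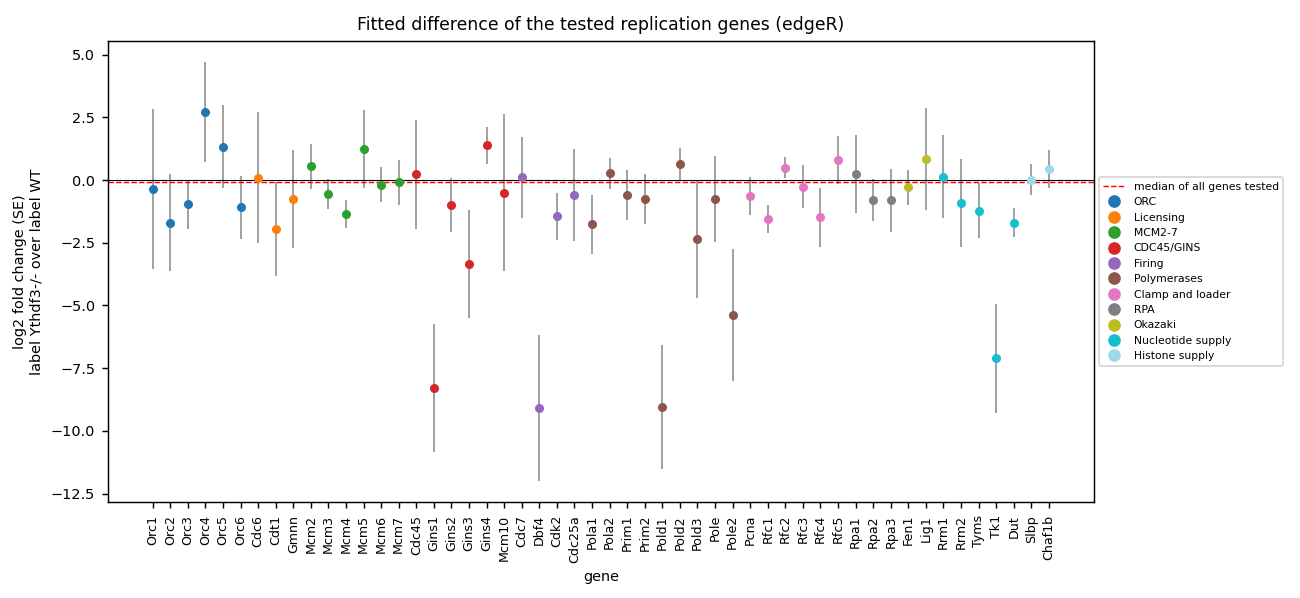
Log2 fold change of the libraries labelled Ythdf3-/- over those labelled WT (vertical axis) for the 52 tested genes (horizontal axis, coloured by complex); points are edgeR estimates and bars their SE. The dashed line is the median of all genes tested (-0.063). Gins1, Dbf4, Pold1, Pole2 and Tk1 lie lowest, with wide errors, and none of the genes passed the adjusted test.

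Pcna encodes the sliding clamp that holds polymerases on DNA, and was highest in Ythdf3-/- 1 and WT 2. It had 449.8, 112 and 126 CPM under the Ythdf3-/- label and 134 and 528 CPM under the WT label. In the clamp loader, Rfc1, its large subunit, had the smallest SD relative to its mean of the tested replication genes under the Ythdf3-/- label. It had 65.1, 71.8 and 66.1 CPM in the libraries labelled Ythdf3-/- and 169.8 and 202 CPM in those labelled WT, means of 67.7 ± 3.62 CPM (SD, n = 3) and 186 ± 22.9 CPM (SD, n = 2). The groups lay far apart, and edgeR gave an unadjusted p of 0.0218 and an adjusted p of 0.964 (log2 fold change -1.55, SE 0.55). The change stayed between -1.71 and -1.36 whichever library was left out. Rfc4, a small subunit, had 63.1, 10.7 and 29.6 CPM against 25.1 and 153 CPM (log2 fold change -1.49, SE 1.19, edgeR adjusted p = 0.9998), and without WT 2 its change was 0.41. Rfc2 was read at 270.5 to 460.2 CPM under the Ythdf3-/- label and at 326 and 199 CPM under the WT label. Rfc3 had 28 to 118 CPM against 57.4 and 117 CPM, and Rfc5 had 33.1 to 152 CPM against 36.2 and 54.2 CPM. None of the other loader subunits separated the labels. Annotated exons of Rfc2, Rfc4 and Rfc5 share 19.1%, 13.4% and 15.4% of their length with neighbours.

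RPA, the trimer that coats single-stranded DNA, varied by subunit. Rpa2 had 26.7, 80.5 and 268 CPM in the libraries labelled Ythdf3-/- and 172 and 228 CPM in those labelled WT (log2 fold change -0.79, SE 0.85, edgeR adjusted p = 0.9998), and -1.97 without Ythdf3-/- 3. Rpa3 had 53.6, 23.5 and 25.7 CPM against 20.2 and 91.2 CPM (log2 fold change -0.81, SE 1.25, edgeR adjusted p = 0.9998). Its sign turned without WT 2 (0.72). Rpa1, the large subunit, had 32.9 to 49.2 CPM under the Ythdf3-/- label and 2.88 and 61.7 CPM under the WT label.

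At the joining of Okazaki fragments, Fen1 and Lig1 behaved differently. Fen1, the flap nuclease, had 94.8, 49.5 and 114 CPM in the libraries labelled Ythdf3-/- and 108 and 89.2 CPM in those labelled WT, the smallest coefficient of variation of the tested genes over the 5 libraries (27.7%). It overlapped fully (log2 fold change -0.29, SE 0.69, edgeR adjusted p = 0.9998), but 84.1% of its exon length is shared with Tmem258 and Gm10143, whose reads cannot be told from its own without strand. Lig1, the replicative ligase, had 193, 1.32 and 1.14 CPM against 20.2 and 47.3 CPM in the libraries labelled WT. Under the Ythdf3-/- label a single library carried it (log2 fold change 0.85, SE 2.04, edgeR adjusted p = 0.9998), and without that library the change was -4.83.

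The genes of nucleotide supply summed highest in the library labelled WT 2, and 4 of the 5 were highest there. Their sum was 488, 199 and 128 CPM under the Ythdf3-/- label and 232 and 975 CPM under the WT label. Tk1, cytosolic thymidine kinase of S phase (chromosome 11, 117815519 to 117826087), had counts of 4, 2 and 5 under the Ythdf3-/- label and of 57 and 1176 under the WT label. It was low in WT 1 as well as under the other label, though above it (log2 fold change -7.12, SE 2.19, edgeR unadjusted p = 0.0116, adjusted p = 0.964), and without WT 2 the change was -2.73. Dut, the dUTPase that keeps uracil out of DNA, had 66.1, 92.3 and 99.6 CPM under the Ythdf3-/- label and 141 and 376 CPM under the WT label. The groups did not overlap (log2 fold change -1.69, SE 0.57, edgeR unadjusted p = 0.0180, adjusted p = 0.964), and without WT 2 the change was -0.74. Rrm2 encodes the S phase subunit of ribonucleotide reductase, the enzyme that makes deoxyribonucleotides. It had 224, 2.42 and 5.99 CPM under the Ythdf3-/- label and 13 and 256 CPM under the WT label. Its partner Rrm1 had 113, 90.9 and 2.14 CPM against 3.84 and 113 CPM. Tyms, thymidylate synthase, had 84.8, 13 and 19.8 CPM against 71.3 and 100.5 CPM. For all 3 the highest library of each label was Ythdf3-/- 1 and WT 2, and the labels overlapped.

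**Figure D4:**
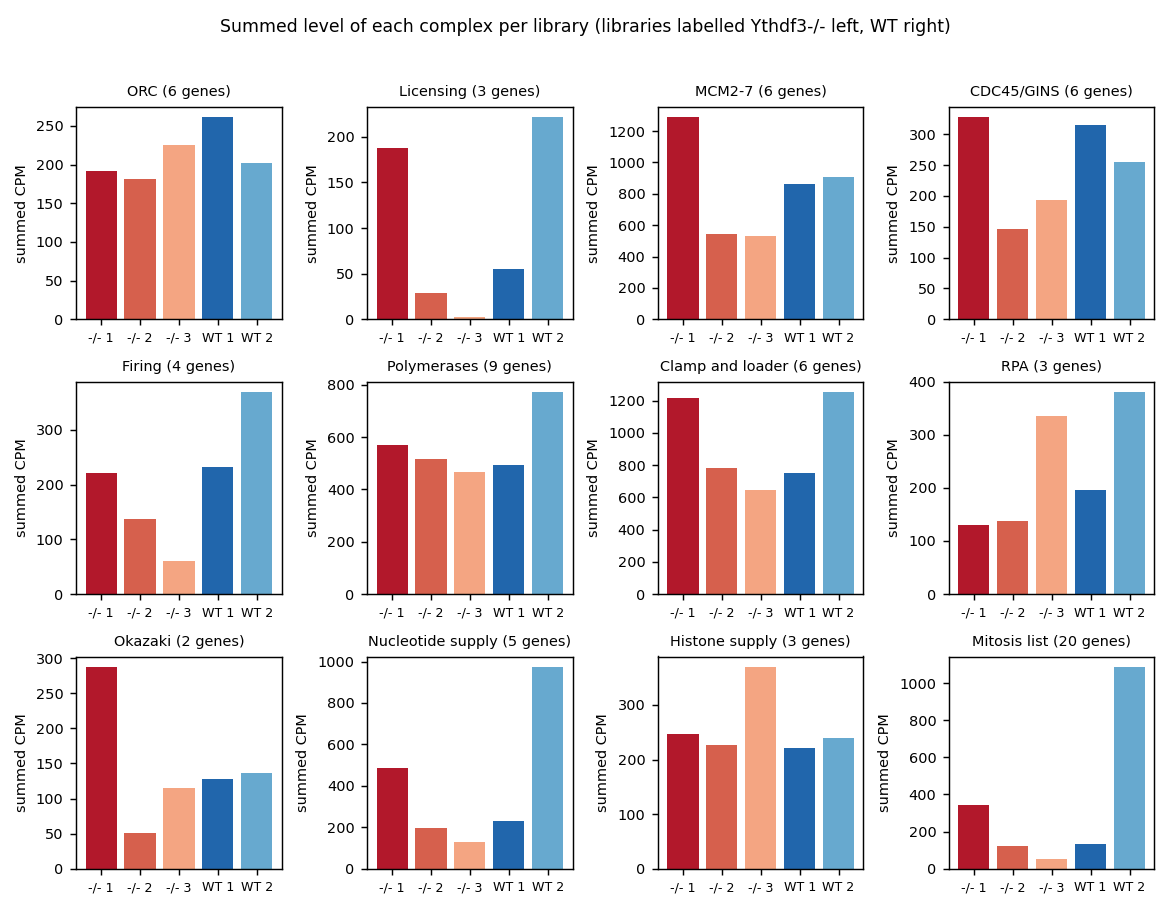
Summed CPM (vertical axis, from 0) of the genes of each of the 11 functions, and of 20 mitosis genes for comparison, in each library (bars: libraries labelled Ythdf3-/- 1, 2 and 3 in red shades, WT 1 and 2 in blue shades). Licensing and nucleotide supply are highest in Ythdf3-/- 1 and WT 2, while ORC runs only from 181 to 261 CPM.

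Genes of histone supply showed no separation of the labels among those tested. Slbp, which binds the stem-loop of histone mRNAs, had 170.5, 136 and 104 CPM in the libraries labelled Ythdf3-/- and 73.6 and 178 CPM in those labelled WT (log2 fold change 0.021, SE 0.61, edgeR adjusted p = 0.9998). Chaf1b, of the chromatin assembly factor CAF-1, had 77.1, 91.9 and 265 CPM against 146 and 53.3 CPM (log2 fold change 0.45, SE 0.76, edgeR adjusted p = 0.9998), and -0.30 without Ythdf3-/- 3. Both overlapped between the labels. Chaf1a, the large subunit of CAF-1, had 0, 0 and 4 counts under the Ythdf3-/- label and 16 and 72 counts under the WT label, without overlap. It did not pass the filter on low counts and was not tested, and 33.6% of its exon length is shared with Ubxn6.

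Levels were compared between genes per kilobase of annotated coding-transcript exon (GENCODE M21, which need not be the authors' annotation). The mean level over the 5 libraries was highest for Pcna, at 178 CPM per kb, then Pold2 at 109.8 and Rpa2 at 85.5 CPM per kb. The rank of Pcna rested on Ythdf3-/- 1 and WT 2, with 296 and 348 CPM per kb. In Ythdf3-/- 2, Ythdf3-/- 3 and WT 1 it had 73.6, 82.7 and 88.5 CPM per kb. Pold2 was higher there, at 158, 118 and 129 CPM per kb. At the low end, Orc1, Pole2 and Mcm10 had 2.0, 1.86 and 1.85 CPM per kb and Chaf1a had 0.35 CPM per kb. Within MCM2-7 the mean level ran from 58.9 CPM per kb for Mcm3 to 21.4 CPM per kb for Mcm2. Their coefficients of variation over the libraries were 38.7% to 121%, so neighbours in this order did not differ beyond their spread. The median coefficient of variation was 71.8% over the 52 genes and 79.2% over all genes tested. After Fen1, the steadiest were Pola2 (29.4%), Rfc2 (32.4%) and Slbp (33.3%).

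Of 35 genes of the same pathway outside the 53, 28 were tested and edgeR called 0. Fitted log2 fold changes were below 0 for 20 of the 28 (52.2% of all genes), with a median of -0.57 against -0.063 for all genes. An unadjusted p under 0.05 was reached by 1 of the 28, lower, against 4.85% of all genes. That gene was Ccne1, cyclin E1, the partner of CDK2, with 0.315, 0.220 and 0.143 CPM in the libraries labelled Ythdf3-/- and 2.04 and 275 CPM in those labelled WT. It rested on WT 2 (log2 fold change -9.30, SE 2.04, edgeR adjusted p = 0.964, and -3.15 without that library). DESeq2, with all 5 libraries, called Ccne1 (adjusted p = 2.64e-06). Rnaseh2c, a subunit of the ribonuclease that removes RNA from DNA, had 52.1, 57.5 and 71.5 CPM against 98.5 and 175 CPM (log2 fold change -1.28, SE 0.67, edgeR adjusted p = 0.983). Nasp, a histone chaperone, had 32.1, 23.2 and 0.570 CPM against 38.2 and 145 CPM (log2 fold change -2.39, SE 1.54, edgeR adjusted p = 0.9998). Ccna2, the cyclin A2 of S and G2, had 24.5, 7.93 and 6.98 CPM against 9.43 and 123 CPM (log2 fold change -2.45, SE 1.58, edgeR adjusted p = 0.9998), and 0.43 without WT 2. In each of the 4 the library labelled WT 2 was highest.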

How the data were processed

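The authors deposited 1 table of raw read counts per gene symbol, a column per library. Per the submitters' processing notes, the tools were HTSeq 0.12.4 and HISAT2 2.2.1, with mm10 as the build. No source used here gives the annotation, how strand was set or how reads with several matches were handled. Columns were matched to samples by title, and groups follow the labels.

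The deposited counts went into edgeR 4.0.16 under R 4.3.3, by its quasi-likelihood test (default expression filter, TMM scaling, robust fit, no covariate), adjusted by Benjamini-Hochberg over all 11146 genes tested; SEs were derived from the F statistic. CPM used library totals. DESeq2 1.42.0 and limma 3.58.1 (voom) were alternatives, beside other scalings and filters, left-out libraries and a replicate block. The test was also run on simulated counts. The outcome is not given here, so nothing on what the test could detect is drawn from it. Exact intervals are Clopper-Pearson and cover counting error only, since PCR copies are not separate molecules; 1 count is worth between 0.0601 and 0.157 CPM. The p-values come from setting the difference between the labels against the spread between libraries of the same label. Each library is a pool of cells from a different mouse, per the series text. Spread between mice therefore cannot be told from that of sampling cells and making libraries. As Ythdf3 went against the labels, libraries of the same label need not share a genotype.

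In each function the 2 tested genes with the smallest p were given a fold change and test, and 4 of the pathway genes outside the 53. Members and lists were chosen with earlier results of these data known. Coordinates and promoters are from RefSeq, GRCm38.p6 (mm10), in which all 53 symbols matched. Exon lengths and overlaps are from GENCODE M21 basic transcripts. Retrocopies of Pcna and Tyms are annotated as well, so their counts are uncertain to that extent.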

Additional observations from a re-analysis of the deposited data

How the results depend on the processing

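EdgeR called 0 of the replication genes under each of the 4 scalings, with no filter and the stricter filter, without any 1 library, with the replicate block and in both fits without 2 libraries (chosen after seeing the data); limma voom called 0 and DESeq2 called 4. Over all genes edgeR called 0, but 21 with no filter, 0 to 1 without 1 library (1 without WT 1) and 7 without Ythdf3-/- 2 and 3, and DESeq2 called 594. The median log2 fold change of the replication genes ran from -1.08 (without Ythdf3-/- 1) to 0.066 (without WT 2) when 1 library was left out. The summed level differed by -1004 CPM (label Ythdf3-/- minus label WT), by -1988 to -20.2 CPM when 1 library was left out, by -1291 CPM on TMM-scaled totals by -736 CPM without WT 2 and Ythdf3-/- 1 and by 428 CPM without Ythdf3-/- 2 and 3.

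The 27 named genes, apart from Ythdf3, were picked by the smallest edgeR p of their list in these same libraries. How often they kept their sign therefore cannot be extended to the genes not picked. Of the 27, 18 kept their sign in every alternative. For the others the log2 fold change with 1 library left out ran from -1.57 to 0.15 (Orc3), -1.76 to 4.77 (Gmnn), -2.29 to 0.41 (Rfc4), -1.54 to 0.72 (Rpa3), -4.83 to 1.63 (Lig1), -0.30 to 1.30 (Chaf1b), -0.50 to 0.86 (Slbp) and -3.36 to 0.43 (Ccna2). Signs also turned with limma voom for Gmnn (1.40) and Lig1 (-2.13). Without WT 2 and Ythdf3-/- 1 they turned for Gmnn (3.79), Rpa3 (0.22) and Lig1 (-4.08). Without Ythdf3-/- 2 and 3 they turned for Gmnn (0.20), Chaf1b (-0.46) and Ythdf3 (-2.88). The cause was not tested.

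The titles number the libraries in both labels, but nothing says that a number pairs animals, and same-numbered libraries did not deviate together (correlation of deviations -0.0043 and 0.0094 over 11146 genes). With the replicate block edgeR called 0 genes, 3 of 52 replication genes had an unadjusted p under 0.05 (2.56% of all genes did), the median was -0.81, and the sign turned for Gmnn (1.94), Lig1 (-0.97) and Chaf1b (-0.15). Fits without a library labelled WT leave 1 under that label, assumed to vary like the others. The fitted biological coefficient of variation was 1.26, and this spread between libraries limits what 2 and 3 libraries can show.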
